A study of Mus musculus with 3 samples.

Results

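Bach1, Bach2, Bcl6 and Prdm1 encode 4 transcriptional repressors of lymphocyte fate, and the Tcf1 binding sites at these genes are described here. A peak was counted for a gene if its midpoint lay inside the gene's span, or if the gene was the nearest protein-coding gene and lay within 100 kb. By this rule the 4 genes, of 21887 protein-coding genes, held 8 of the 3402 peaks of regulatory T cells (Treg cells) and 12 of the 4519 peaks of conventional CD4 T cells. The rule used positions and gene names only, although the genes were picked with earlier results of these data known.

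Tcf1-bound chromatin was immunoprecipitated and sequenced. Both cell types were sorted from spleens of wild-type Foxp3-Cre-GFP mice aged 8 to 10 weeks, whose Foxp3-driven reporter carries Cre and green fluorescent protein, so conventional cells came from reporter mice as well. Treg cells were TCRb+, CD4+, CD25+ and Foxp3-Cre-GFP+, and conventional cells were TCRb+, CD4+, CD25- and Foxp3-Cre-GFP-. The conventional sample is called effector in its tissue label and conventional in its title and source, and no label separates naive from memory cells. There was 1 library, with 1 mm10 peak list, for each cell type, so there is no replicate check, and no difference between the cell types could be tested. The other library of the study, of CD4 T cells from CD4-Cre+ Tcf1 fl/fl mice, was not analysed here. How many mice were pooled is not stated.

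Bach2 and Bach1 are related BTB and basic leucine zipper proteins that bind DNA together with small Maf proteins. Bach2 holds back effector programmes in T cells and supports Treg cells, while Bach1 is best known as a heme-regulated repressor of stress genes such as Hmox1. Bcl6 is a BTB and zinc finger repressor needed for follicular helper T cells. Blimp-1, the product of Prdm1, is a zinc finger repressor that acts in effector and plasma cells. Bcl6 and Blimp-1 repress each other's genes, and Bach2 represses Prdm1. Tcf1, the HMG-box factor encoded by Tcf7, has been linked to Bcl6 induction and to restraint of Prdm1 in follicular helper responses.

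A start window, as given by RefSeq on GRCm38.p6, runs from 250 bases before to 50 bases after a listed transcription start. Of the 5 start windows listed for the 4 genes, Tcf1 peaks overlapped the one of Bach1, in the Treg list, and the first of the 2 of Bcl6, in both lists. These sequences are shown because they are the 2 sites where a peak and a listed start coincide. Capitals mark the bases inside the peak (for Bcl6, inside the peaks of both lists). Bach1 is on the plus strand at chr16:87698704-87699003 and Bcl6 on the minus strand at chr16:23988803-23989102, and both are written 5′ to 3′.
Bach1: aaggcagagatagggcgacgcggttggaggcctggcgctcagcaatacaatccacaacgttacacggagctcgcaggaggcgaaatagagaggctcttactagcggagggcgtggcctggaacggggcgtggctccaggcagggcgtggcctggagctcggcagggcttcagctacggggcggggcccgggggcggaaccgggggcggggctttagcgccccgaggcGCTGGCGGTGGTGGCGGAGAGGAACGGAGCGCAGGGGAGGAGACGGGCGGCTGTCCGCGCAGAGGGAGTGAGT
Bcl6: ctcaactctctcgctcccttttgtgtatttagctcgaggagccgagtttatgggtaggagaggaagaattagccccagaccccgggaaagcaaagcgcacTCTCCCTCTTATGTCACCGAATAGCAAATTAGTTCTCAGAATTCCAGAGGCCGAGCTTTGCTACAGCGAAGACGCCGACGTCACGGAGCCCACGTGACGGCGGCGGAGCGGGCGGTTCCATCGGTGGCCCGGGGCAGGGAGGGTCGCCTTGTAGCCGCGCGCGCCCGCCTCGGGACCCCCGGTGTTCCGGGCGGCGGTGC

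The Treg peak covered 73 bases of the Bach1 window. At Bcl6 the Treg peak covered 200 bases and the conventional peak 253 bases of the window. Among genes with a listed window, 7.11% had one overlapped by a Treg peak, 11.3% by a conventional peak and 4.75% by peaks of both lists. Both windows were rich in G and C, at 69.7% for Bach1 and 62.7% for Bcl6 with 31 CpG dinucleotides each, against medians of 64.0% and 26 over the 1407 windows overlapped by Treg peaks and 56.3% and 13 over all 21263 windows of protein-coding genes.

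The windows were searched on both strands for 8 motifs. The TCF/LEF core CTTTGA was found in neither of the 2 printed windows, and 14.4% of all windows hold it. The ETS motif CCGGAA had 1 match in the Bcl6 window, on the reverse strand at bases 285 to 290 counted from its 5′ end and inside the capitals, and 18.7% of all windows hold that motif, the listed window of Bach2 and the second of Bcl6 among them. CTTTGA did occur in windows that no peak overlapped, once in the listed window of Bach2 and once in the second window of Bcl6. That second Bcl6 window also held the Bcl6 motif TTCCTNGAA, found in 1.41% of all windows. The single listed window of Prdm1 held an AP-1 match, TGANTCA (6.99% of all windows), and no TCF/LEF core. Of the other motifs searched, CTTTGAT (TCF/LEF, which contains the core), TGTGGT (RUNX), the Bach/Maf element (which contains the AP-1 motif) and the Blimp-1/IRF element were in none of the 5 windows. These letters describe the start windows alone, since the other peaks lie outside any listed window and no genome sequence was used here. The Bach1 window holds 73 of the 354 bp of its Treg peak. The first Bcl6 window holds 200 of the 418 bp of the Treg peak and 253 of the 488 bp of the conventional peak. The rest of these peaks was not searched.

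Across the 4 genes the peaks formed 14 loci. At 6 loci both lists had a peak, at 2 loci only the Treg list had one (at Bach1 and Bcl6), and at 6 only the conventional list (4 at Bach2, 1 at Bcl6 and 1 at Prdm1). A Treg peak was present at 4 of 4 genes, where 12.3% of all protein-coding genes had one, and a conventional peak at 3 of 4, where 16.3% had one. Among genes with an assigned stretch of genome at least as long as each of the 4 had, 17.9% to 21.7% had a Treg peak. A conventional peak was present at 14.0% to 19.4% of such genes. Among peaks at or above the median width, 3 of 4 genes had a Treg peak and Bach1 had none. The share over all genes is not given for that filter. Bach2, Bcl6 and Prdm1 had peaks in both lists, as 8.17% of all genes did, and none of the 4 genes had a conventional peak without a Treg peak, as 8.1% of all genes did. The conventional list is the longer one. Cut to its 3402 widest peaks, as many as the uncut Treg list holds, it left 7 conventional peaks beside the 8 Treg peaks. With both lists cut at their own median width, 5 Treg and 7 conventional peaks remained. A listed peak may come from all the sorted cells or from some of them, and this cannot be told apart in bulk chromatin.

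**Figure D1:**
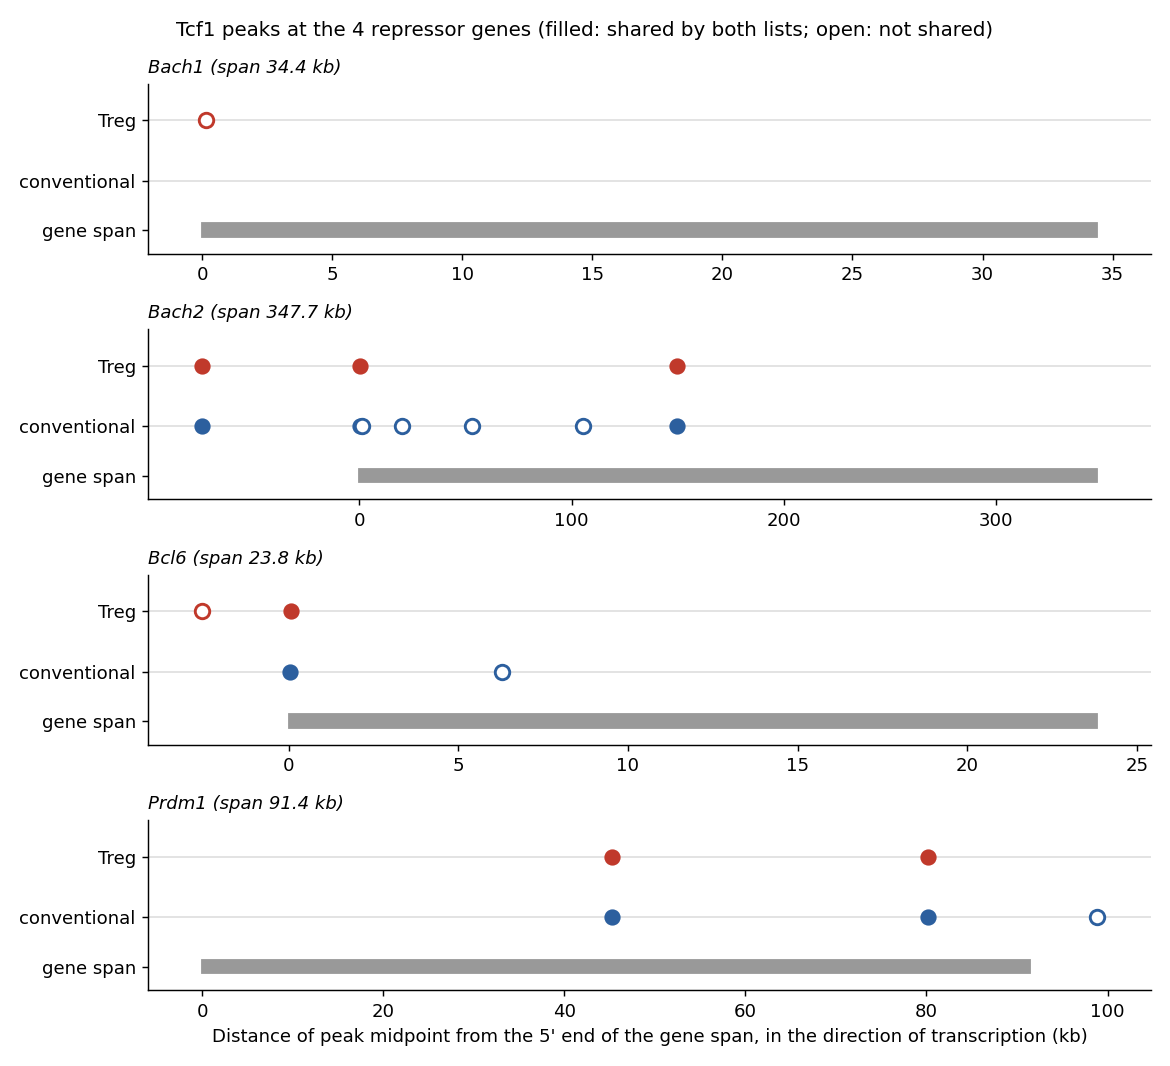
Midpoints of Tcf1 peaks at the 4 genes, as distance in kb from the 5′ end of the gene span in the direction of transcription, with Treg peaks in the upper row and conventional peaks in the lower row of each panel and the gene span as a grey bar. Filled points overlap a peak of the other list and open points do not; the 3 Treg peaks at Bach2 are all filled, and 4 of the 7 conventional peaks there are open.

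Bach2, the longest of the 4 genes, had the most peaks in both lists, with 3 in Treg cells and 7 in conventional cells. The gene lies on the plus strand of chromosome 4, 32238413 to 32586109, a span of 347697 bp. The 3 Treg peaks were at chr4:32163983-32164532 (550 bp wide), chr4:32238407-32238824 (418 bp) and chr4:32387952-32388222 (271 bp). Each of them overlapped a conventional peak, at chr4:32164064-32164539 (476 bp), chr4:32238275-32238704 (430 bp) and chr4:32387927-32388228 (302 bp). The shared loci therefore fell upstream of the gene, at its 5′ end and inside it.

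The upstream Bach2 peak of the Treg list had its midpoint 74156 bp before the span, inside the long noncoding RNA gene Gm42266. It was the widest Treg peak at the 4 genes and wider than 84.7% of the Treg list, and its conventional partner was wider than 62.0% of the conventional list. The peak at the 5′ end had its midpoint 202 bp inside the span in the Treg list and 76 bp inside it in the conventional list. The innermost shared peak lay 149674 bp inside the span in the Treg list and was among the narrow peaks of each list, wider than 15.0% of Treg and 8.56% of conventional peaks. The Treg peak lay wholly inside its conventional partner there.

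The other 4 conventional peaks at Bach2 overlapped no Treg peak. The first, chr4:32239266-32239554 (289 bp), lay 997 bp inside the span, and its midpoint was 795 bp from that of the Treg peak at the 5′ end. It is a neighbour of that shared peak. The next 3 had no Treg peak nearby, with the closest Treg midpoint 19695 to 52979 bp away. They were chr4:32258145-32258476 (332 bp), chr4:32291358-32291830 (473 bp) and chr4:32343665-32344137 (473 bp), at 19897, 53181 and 105488 bp inside the span. The last 2 of these were each wider than 61.2% of the conventional list, so they were not among its narrowest peaks.

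All peaks assigned to Bach2 in both lists fell in the upstream flank and the 5′ part of the gene. From the last peak to the 3′ end of the span, 198022 bp in the Treg list and 198032 bp in the conventional list held no peak. Beyond the 3′ end a conventional peak (chr4:32656922-32657302, 381 bp) lay 71003 bp from the span, closer than the upstream peak, and was assigned to Mdn1. The 1 start that RefSeq's window table lists for Bach2 lies 179022 bp inside the span, and the closest peaks were 29348 bp (Treg) and 29358 bp (conventional) upstream of it. No start window is listed for the 5′ end of the span, where the shared peak lay.

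Bach2 is a long gene, and the stretch of genome assigned to it was 455 kb. Of all protein-coding genes, 85 (0.388%) had at least 3 Treg peaks and 9 (0.0411%) had at least 7 conventional peaks. Among the 443 genes with a stretch at least as long, Bach2 included, 9 had at least 3 Treg peaks, and Bach2 was the 1 gene with at least 7 conventional peaks. The peak counts and the stretch used as limits here were those of Bach2 itself. The 7 depend on narrow peaks. Bach2 had 3 Treg and 4 conventional peaks at equal list lengths, where only the conventional list was cut. Among peaks at or above the median width of each list it had 2 and 4. Counts over all genes are not given for those filters. The median of those 443 genes was 0 peaks in both lists, and 21.7% of them had a Treg peak and 14.0% a conventional peak. Within the span and 10 kb around it the density at Bach2 was 0.544 Treg and 1.63 conventional peaks per 100 kb. By this measure Bach2 did not lead, since Bcl6 had 4.56 in each list, Prdm1 had 1.8 Treg and 2.69 conventional, and Bach1 had 1.84 Treg and 0 conventional peaks per 100 kb.

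**Figure D2:**
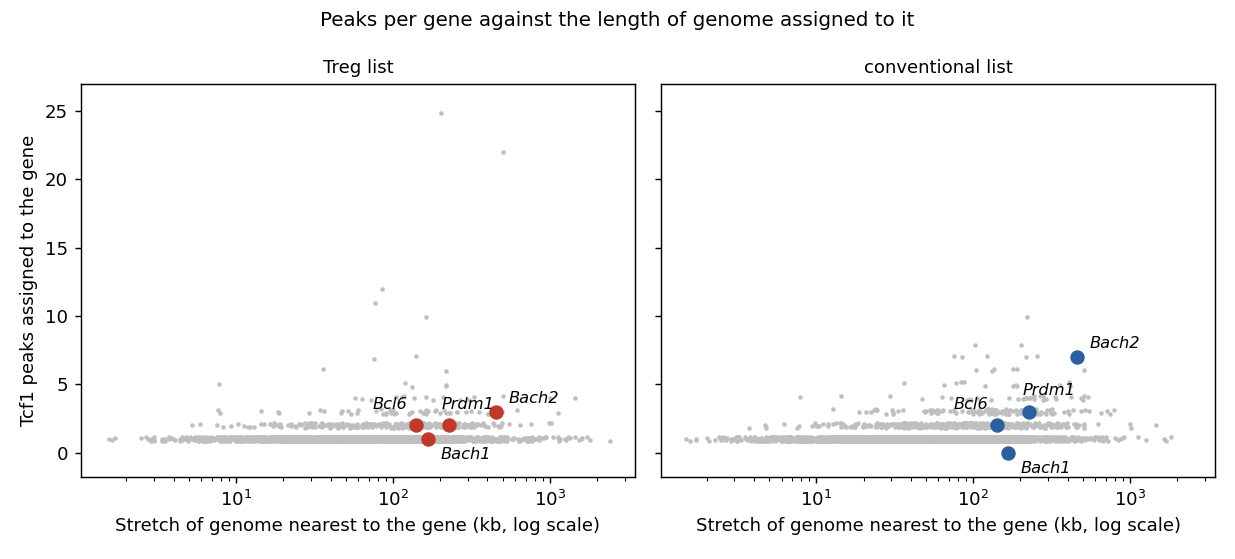
Number of Tcf1 peaks assigned to each gene (vertical axis) against the length of genome nearest to it in kb (horizontal axis, log scale) in the Treg list (left) and the conventional list (right). Grey points are genes with at least 1 peak, moved slightly up or down to separate them, and coloured points are the 4 repressor genes; Bach2 stands at 3 Treg and 7 conventional peaks.

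Bach1, the relative of Bach2, had 1 peak in the Treg list and 0 in the conventional list. The gene lies on the plus strand of chromosome 16, 87698954 to 87733346. The Treg peak, chr16:87698931-87699284 (354 bp), had its midpoint 153 bp after the listed start, and the capitals in the Bach1 sequence above show the part of it inside the start window. It was wider than 45.9% of the Treg list, and so was not in its wider part. The closest conventional peak lay 202897 bp outside the Bach1 span, at Cct8, and was itself shared. A Treg peak without a conventional one was found at 4.13% of all protein-coding genes, and a start window overlapped in the Treg list alone at 2.37% of genes with a window.

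Bcl6 had 2 peaks in each list, of which 1 was shared. The gene lies on the minus strand of chromosome 16, 23965050 to 23988866. The shared peak covered the 5′ end of the gene, at chr16:23988585-23989002 in Treg cells (418 bp) and chr16:23988568-23989055 in conventional cells (488 bp). The Treg peak lay wholly inside the conventional one, with midpoints 18 bp apart. The peaks were similarly placed in their lists by width, wider than 63.6% of Treg and 64.1% of conventional peaks.

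The unshared Bcl6 peaks fell on opposite sides of that site. The second Treg peak, chr16:23991279-23991545 (267 bp), lay 2546 bp upstream of the gene, inside the long noncoding RNA gene Gm31527, whose span overlaps the 5′ end of Bcl6. The second conventional peak, chr16:23982412-23982748 (337 bp), lay 6286 bp inside the gene and 1297 bp upstream of the second listed Bcl6 start. Both were narrow, wider than 13.0% of the Treg list and 21.8% of the conventional list.

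Prdm1, the gene for Blimp-1, had 2 peaks in Treg cells and 3 in conventional cells, and the 2 Treg peaks were both shared. The gene lies on the minus strand of chromosome 10, 44437174 to 44528558. The peaks inside the gene were chr10:44483045-44483484 (440 bp) and chr10:44448152-44448569 (418 bp) in Treg cells, against chr10:44482988-44483566 (579 bp) and chr10:44448042-44448682 (641 bp) in conventional cells. Both Treg peaks lay wholly inside their partners, with midpoints 13 and 2 bp apart. No peak lay at either end of the Prdm1 span or over its listed start.

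The 1 start listed for Prdm1 lies 69810 bp inside the span, and no start window is listed for the span's 5′ end. Relative to that listed start, 1 Treg peak lay 24516 bp upstream and the other 10388 bp downstream. The downstream peak was wider than 63.6% of the Treg list and 84.5% of the conventional list, and at 641 bp it was the widest conventional peak at the 4 genes. The upstream peak was wider than 68.4% of the Treg list and 77.7% of the conventional list. The conventional peak without a partner, chr10:44429574-44429904 (331 bp), lay 7435 bp beyond the 3′ end of the gene and was wider than 19.7% of its list.

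Over the 4 genes, 6 of 8 Treg peaks overlapped a conventional peak (75%, 95% Clopper-Pearson interval 34.9% to 96.8%), against 56.9% of the whole Treg list. In the other direction 6 of 12 conventional peaks overlapped a Treg peak (50%, 21.1% to 78.9%), against 42.8% of the whole conventional list. Both intervals, which cover counting error only, include the value of the whole list. Neighbouring peaks of 1 gene are not independent sites. The peaks of the 4 genes made up 0.235% of the Treg list and 0.266% of the conventional list.

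Of the 6 shared Treg peaks, 5 were narrower than their conventional partner and 4 lay wholly inside it, where 69.8% and 38.9% of all 1935 shared Treg peaks did. The upstream Bach2 peak was the exception in width, at 550 bp in the Treg list and 476 bp in the conventional list. Midpoints of the 6 pairs were 2 to 126 bp apart (median 15.5 bp), and the median over all shared Treg peaks was 59 bp. Median widths of the shared peaks at the 4 genes were 418 bp in Treg cells and 482 bp in conventional cells. Those of the unshared peaks were 310.5 bp (2 Treg peaks) and 334.5 bp (6 conventional peaks). Widths of shared and unshared peaks over the whole lists are not given. In the whole lists the median width was 366 bp for Treg and 428 bp for conventional, and 5 of 8 Treg and 7 of 12 conventional peaks at the 4 genes reached the median of their list, as 50.1% and 50.3% of all peaks did.

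**Figure D3:**
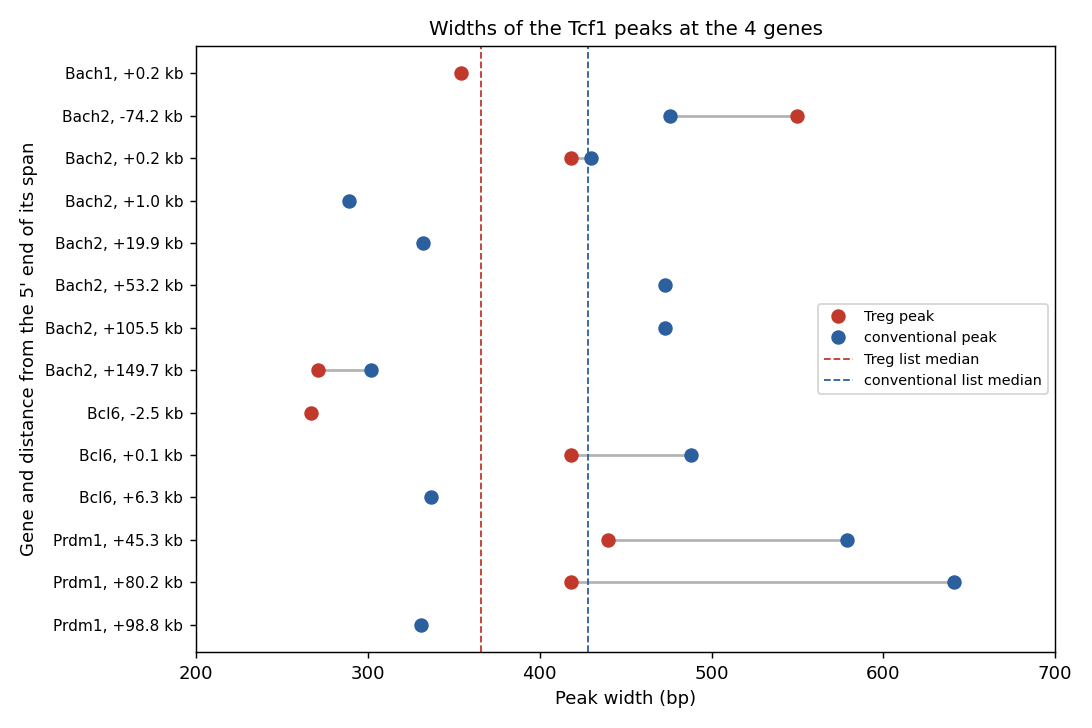
Width in bp of each Tcf1 peak at the 4 genes, by locus, named by gene and distance from the 5′ end of its span, with Treg peaks in red, conventional peaks in blue and grey lines joining shared pairs; dashed lines are the medians of the whole lists, 366 bp for Treg and 428 bp for conventional. In 5 of the 6 joined pairs the Treg peak is the narrower one, and the pair upstream of Bach2 runs the other way.

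By place, 3 of 8 Treg peaks lay within 1 kb of a gene end (at Bach1, Bach2 and Bcl6), 3 further inside a span and 2 outside. Of the 12 conventional peaks 3 lay at a gene end (2 of them at Bach2 and 1 at Bcl6), 7 further inside and 2 outside. In the whole lists 41.8% of Treg and 48.1% of conventional peaks lay within 1 kb of a protein-coding gene's end, and 29.4% and 30.0% elsewhere inside one.

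Of the protein-coding genes beside the 4 genes, Lpp and Grik1 had peaks, where 12.3% of all protein-coding genes had a Treg peak and 16.3% a conventional peak. Map3k7 and Gja10 flank Bach2, Atg5 and Prep flank Prdm1, Rtp2 and Map3k7cl lie on the left of Bcl6 and Bach1, and no peak of either list was assigned to any of them. Lpp, on the right of Bcl6 across 404483 bp, had 1 peak in each list, neither shared, and Grik1, on the right of Bach1, had 1 Treg peak. Just outside the limit, a Treg peak (chr4:32138063-32138349, 287 bp) lay 100207 bp upstream of Bach2 and was assigned to no gene. A conventional peak (chr16:24151308-24151798, 491 bp) lay 162687 bp upstream of Bcl6, in the gap towards Lpp, and was also assigned to no gene. Neither overlapped a peak of the other list. The farthest peaks inside the limit were those 74156 bp (Treg) and 74112 bp (conventional) from Bach2.

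Genes with the most similar counts of shared and unshared peaks, ordered by the length of their stretch of genome, are named as a description over 2 peak lists. Prkch, which encodes a protein kinase C, was the 1 other gene with the counts of Bach2, 3 Treg and 7 conventional peaks with 3 shared. Arl4c (2 and 6, with 2 shared) and Cxcr4, a chemokine receptor (3 and 5, with 3 shared), came next, each at a summed difference of 2 peaks. The counts of Prdm1 were matched by 25 genes, with the antiproliferative gene Btg1, Gm52008 and Hlcs closest in stretch. Those of Bcl6 were matched by 26, with the adhesion receptor Cd2, Rbbp6 and Fam3c closest. Those of Bach1 were matched by 824 genes, among which Dhx35, Cenpf and Socs6 were closest.

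The partners, regulators and targets of the 4 repressors were taken from 7 lists with 93 genes, chosen with earlier results known. A Treg peak was present at 40 of the 93 genes, a conventional peak at 46 and both at 33. Over all protein-coding genes these shares were 12.3%, 16.3% and 8.17%. A peak in the Treg list alone was found at 7 of the 93 genes and in the conventional list alone at 13. Over all protein-coding genes those shares were 4.13% and 8.1%. The same all-gene shares apply to each of the 7 lists below. The 93 genes were not compared with genes that had an equally long stretch of genome. The median was 0 peaks in each list over the 93 genes and over all protein-coding genes.

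Among 16 upstream regulators, 12 had a Treg peak and 12 a conventional peak, 11 of them both. Tcf7 had 7 peaks in each list (4 within 10 kb of its span in each), and Lef1, which encodes the close relative of Tcf1, had 5 Treg and 10 conventional peaks (4 and 8 within 10 kb). Il6st, the shared signalling chain of interleukin 6 receptors, had 3 Treg and 2 conventional peaks (1 and 0 within 10 kb of its span), and the forkhead factor Foxp1 had 1 and 3. Il2rb, a chain of the interleukin 2 receptor, had a peak in the Treg list alone, and Batf, an AP-1 family partner of Irf4, in the conventional list alone.

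Among 10 Bach partners and stress targets, 4 had a Treg peak and 4 a conventional peak, with 2 in common. Mafg, a small Maf partner, had 1 Treg and 2 conventional peaks, and Keap1, the cytoplasmic inhibitor of Nrf2, had 1 shared peak. Nfe2l2, which encodes Nrf2, and Nfe2l1 had a peak in the Treg list alone, while Maff and the ferritin gene Fth1 had one in the conventional list alone. No peak was assigned to Hmox1, Nqo1, Mafk or Nfe2, although 2 conventional peaks lay within 10 kb of the Nfe2 span.

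Among 10 corepressors of Bcl6, 5 had a Treg peak and 4 a conventional peak, with 3 in common. Hdac4, a class II histone deacetylase, had 1 Treg and 5 conventional peaks, none shared, and Kdm2b had 1 and 3. Bcor, a corepressor that binds the BTB domain of Bcl6, had 2 Treg peaks and 1 conventional peak. Cul3 and Pcgf1 had a peak in the Treg list alone and Ncor1 in the conventional list alone. Among 7 corepressors listed for Blimp-1, 2 had a Treg peak and 3 a conventional peak. Hdac2 and the arginine methyltransferase gene Prmt5 had 1 shared peak each, and Tle4 had 2 conventional peaks, 1 of them within 10 kb of its span.

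Among 16 follicular helper genes, 5 had a Treg peak and 8 a conventional peak, and the 5 had both. Il21, a follicular helper cytokine, had 1 Treg and 2 conventional peaks, none within 10 kb of its span. The HMG-box gene Tox had 1 and 2, and Maf had 1 shared peak. Btla, an inhibitory receptor, had 0 Treg and 2 conventional peaks. No peak was assigned to Cxcr5, Icos or Ascl2 in either list, although 1 conventional peak lay within 10 kb of the Cxcr5 span.

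Among 22 effector, homing and cytokine genes of the circuit, 8 had a Treg peak and 9 a conventional peak, 6 of them both. The homing receptor gene Ccr7 had 2 Treg and 5 conventional peaks (1 and 3 within 10 kb), and Klf2, which controls T cell trafficking, had 1 and 2. Il10, an inhibitory cytokine, and the chemokine receptor gene Ccr6 had 1 peak each in the Treg list alone, that of Il10 more than 10 kb from its span. S1pr1, the receptor for exit from lymphoid organs, had 0 Treg and 3 conventional peaks (0 and 2 within 10 kb), and Gzmb (granzyme B) had 2 and Il7r 1 in the conventional list alone. Neither Gzmb peak lay within 10 kb of its span. Among 12 relatives of Prdm1 and Bcl6, 4 had a Treg peak and 6 a conventional peak. Prdm10 had 1 Treg and 3 conventional peaks, and Zbtb7b, which encodes the CD4 lineage factor ThPOK, had 1 shared peak, as Zbtb20 did. Prdm2 had 1 peak in each list, not shared. Bcl6b, the closest relative of Bcl6, was assigned none, although 1 Treg and 2 conventional peaks nearest to other genes lay within 10 kb of its span.

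**Figure D4:**
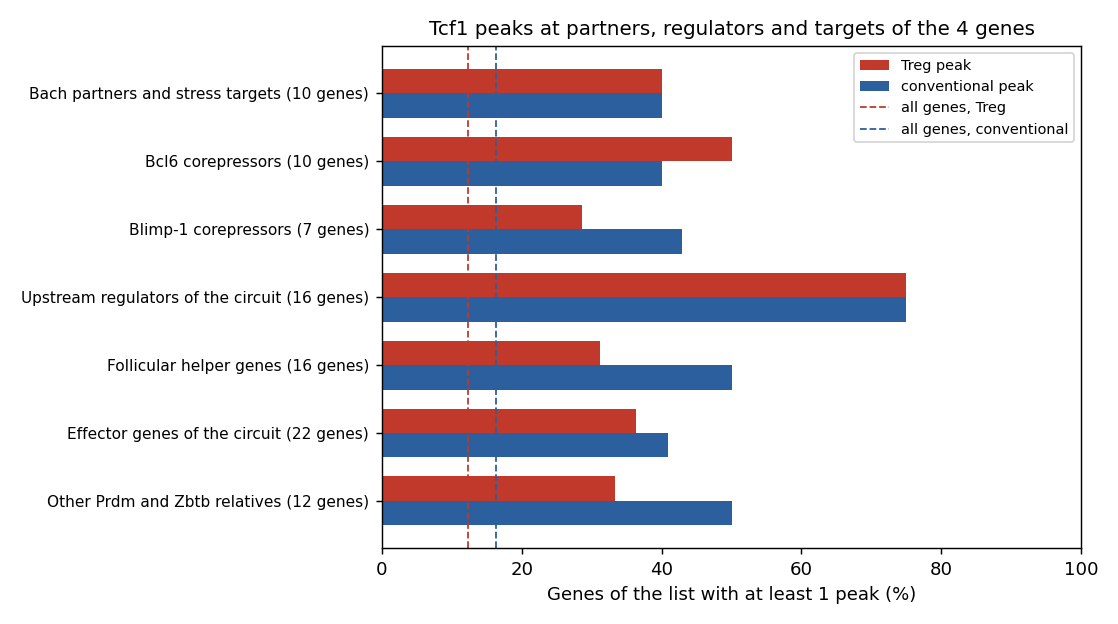
Percent of the genes of each of 7 lists that had at least 1 Tcf1 peak, with Treg bars above conventional bars and the number of genes in brackets. Dashed lines give the same share over all protein-coding genes, 12.3% for Treg and 16.3% for conventional; upstream regulators stand at 12 of 16 genes in both lists.

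As Bcl6, Bach2 and Blimp-1 also act in B and plasma cells, peaks at marker genes of other cell types were counted. Of 8 B cell markers none had a peak in either list, and of 5 plasma cell markers Irf4, which T cells also use, had 1 shared peak. Of 6 myeloid markers Fcgr3 had 1 Treg and 1 conventional peak, not shared, and of 4 CD8 T cell markers Cd8b1 had 1 conventional peak. Of 8 Treg markers 4 had a Treg peak and 5 a conventional peak, with none at Foxp3. Of 8 T cell markers 6 were found among the protein-coding genes. Of these 6, 3 had a Treg peak and 4 a conventional peak, with none at Cd4 or Cd3g. These lists are short, and 12.3% of all protein-coding genes had a Treg peak and 16.3% a conventional peak. A peak list reports binding and not expression, so these counts describe where peaks lay and do not test the labels.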

How the data were processed

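Peak positions of Tcf1 chromatin immunoprecipitation were analysed for 1 Treg and 1 conventional CD4 T cell library. The authors deposited 1 filtered list per library, with 3 columns (chromosome, start and end) on mm10; the filter used is unknown. Per the submitters' processing notes the tools were FastQC, Bowtie2 2.3.4.1 and MACS2 2.1.1, without their roles. Whether another library served as control is unknown too. The lists hold no read count or height, so depth is unknown. A calling threshold that depends on depth changes both the number and the width of peaks.

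Python 3.11.15 with numpy 2.4.6, pandas 2.3.3, scipy 1.17.1 and matplotlib 3.10.9 was used. Coordinates are 1-based. Genes came from the RefSeq table of GRCm38.p6, whose primary chromosomes are those of mm10, and strands and start windows from its promoter table, in which all 4 genes matched by symbol. Peaks of the Treg and conventional lists with at least 1 bp in common were called shared. The stretch of genome of a gene is its span plus the part of each gap that is nearer to it than to the next gene, up to 100 kb a side. Assignment and overlap were tested on simulated data. No test between cell types was possible with 1 library each. The 4 genes, the gene lists and the alternatives were chosen with earlier results of these data known. Named from each list were the 4 genes with the most peaks, all genes of a list when fewer than 5 had a peak, and the 3 genes most similar to each of the 4; other genes were chosen after their values were seen. The planned motif search was run on start windows only.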

Additional observations from a re-analysis of the deposited data

How the results depend on the processing

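Depth is unknown, and width was the one graded measure. Keeping only peaks at or above the median width of each list left 5 Treg and 7 conventional peaks at the 4 genes, in place of 8 and 12. The 5 Treg peaks that remained were all shared (100%). At equal list lengths, with the 3402 widest conventional peaks, 8 Treg and 7 conventional peaks remained, so the larger conventional total did not hold there. Bach2 then had 3 Treg and 4 conventional peaks. The other settings were nearest gene within 20 kb, within 10 kb of the span, inside the span, merging of peaks within 1000 bp and other definitions of overlap. A window of 200 kb around the span, whichever gene was nearest, was added after seeing the data. Together these settings gave 6 to 9 Treg and 10 to 14 conventional peaks. Over all settings but the first, 62.5% to 83.3% of Treg peaks were shared, and over all settings 42.9% to 71.4% of conventional peaks. Shares over the whole lists (56.9% of Treg and 42.8% of conventional peaks) are given for the main setting only. The shares under other settings, the 100% included, therefore have no value of the whole list beside them. The Bach1 peak was absent from the wider part of the Treg list. No paired analysis was possible because each cell type had 1 library, and for the same reason no replicate could be left out.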

Other observations

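Over the start windows of all protein-coding genes, the TCF/LEF core CTTTGA was found in 15.8% of the 1407 windows overlapped by a Treg peak, 14.4% of the 2224 windows overlapped by a conventional peak and 14.4% of all 21263 windows. The longer form CTTTGAT was found in 5.61%, 4.18% and 3.22% of these sets. The ETS motif CCGGAA was found in 38.2%, 39.4% and 18.7%, and the RUNX motif TGTGGT in 10.9%, 10.2% and 15.0%. Windows overlapped by peaks were richer in G and C, with medians of 64.0% (Treg) and 63.3% (conventional) against 56.3% over all windows, and the part of base composition in these shares was not tested.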
